A study of Mus musculus with 2 samples.

Results

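Fibroblasts that carried RNA of at least 3 of the 5 genes Pi16, Cd248, Dpp4, Sema3c and Efhd1 were examined in 2 droplet libraries of mouse heart, made 20 days after transverse aortic constriction (TAC) or sham surgery. TAC narrows the aortic arch and loads the left ventricle with pressure. A barcode was kept with at least 500 genes, at least 1000 unique molecular identifiers (UMIs, each standing for 1 captured RNA molecule) and at most 15% mitochondrial UMIs. It was gated as a fibroblast when Dcn, Col1a1, Col1a2 and Col3a1 together made up at least 0.3% of its UMIs and Ptprc and Pecam1, which mark leukocytes and endothelium, gave at most 1 UMI. Of 11650 gated fibroblasts, 1865 met the 3-gene rule and are called marker-set fibroblasts here, and the other 9785 are called other fibroblasts. The set was thus selected on the measured UMIs of these 5 genes. The TAC library held 614 marker-set fibroblasts among 5423 gated fibroblasts, and the sham library held 1251 among 6227.

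Both libraries came from male wild-type C57BL6/J mice, and the groups shared strain, genotype, sex and day of harvest and differed by the operation. The hearts were digested with collagenases and protease, cardiomyocytes were left to settle, and viable cells of the remaining suspension were sorted. How many hearts entered each library is not given in the sources used here. With 1 library per group no difference between TAC and sham has a replicate check, and every interval below covers counting error only.

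Fibroblasts that express Pi16 and Dpp4 are known in many mouse tissues as cells of the adventitia, the loose connective tissue around larger vessels. They are described as a resting pool that keeps stem-like surface proteins such as Ly6a and Cd34 and makes hyaluronan and elastic matrix. In the pressure-loaded heart, fibroblasts are known to turn towards making collagen, periostin and other scar matrix.

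The 5 genes that chose the cells have different jobs. Pi16 is a secreted peptidase inhibitor, Cd248 (endosialin) a membrane glycoprotein of perivascular stroma, and Dpp4 a surface protease that trims the ends of peptides. Sema3c is a secreted semaphorin read by neuropilin and plexin receptors, and Efhd1 is a calcium-binding protein of mitochondria. In the mm10 build, Pi16 (ENSMUSG00000024011) lies at chr17:29317680-29330593 on the plus strand and Dpp4 (ENSMUSG00000035000) at chr2:62330073-62412231 on the minus strand. Cd248 (ENSMUSG00000056481, chr19:5068078-5070682), Sema3c (ENSMUSG00000028780, chr5:17574281-17730268) and Efhd1 (ENSMUSG00000026255, chr1:87264363-87310839) lie on the plus strand. The 5 genes thus sit on different chromosomes.

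The rule asked for several of its genes in each cell, so seeing them together follows from the choice of cells. Shared control of these genes was not tested. Promoter sequences of 4 of the 5 rule genes are shown as a description. Each runs from 250 bases before to 50 bases after the RefSeq start on GRCm38.p6, 5′ to 3′ on the gene's own strand. For Pi16 and Sema3c the RefSeq start differs from the gene start given above, and the whole window lies inside that gene span. Capitals mark CACCC, the box that Krüppel-like factors bind, or its reverse complement GGGTG.
Pi16, chr17:29318632-29318931, plus strand: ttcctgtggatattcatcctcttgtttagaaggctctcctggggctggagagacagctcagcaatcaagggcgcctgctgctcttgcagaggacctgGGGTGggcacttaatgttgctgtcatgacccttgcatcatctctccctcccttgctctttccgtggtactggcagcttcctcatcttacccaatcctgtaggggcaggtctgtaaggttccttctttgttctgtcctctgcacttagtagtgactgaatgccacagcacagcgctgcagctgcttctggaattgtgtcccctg
Dpp4, chr2:62412182-62412481, minus strand: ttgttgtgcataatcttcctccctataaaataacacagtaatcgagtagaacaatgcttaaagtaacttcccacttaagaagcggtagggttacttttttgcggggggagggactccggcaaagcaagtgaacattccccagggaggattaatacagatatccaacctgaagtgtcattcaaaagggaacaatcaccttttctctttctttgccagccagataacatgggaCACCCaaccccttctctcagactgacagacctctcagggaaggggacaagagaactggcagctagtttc
Sema3c, chr5:17574566-17574865, plus strand: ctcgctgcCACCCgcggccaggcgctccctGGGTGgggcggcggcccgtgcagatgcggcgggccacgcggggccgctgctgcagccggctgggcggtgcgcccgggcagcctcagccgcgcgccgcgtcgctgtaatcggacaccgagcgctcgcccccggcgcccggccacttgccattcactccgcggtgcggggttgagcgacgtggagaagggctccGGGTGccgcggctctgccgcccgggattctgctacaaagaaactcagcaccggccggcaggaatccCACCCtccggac
Efhd1, chr1:87264103-87264402, plus strand: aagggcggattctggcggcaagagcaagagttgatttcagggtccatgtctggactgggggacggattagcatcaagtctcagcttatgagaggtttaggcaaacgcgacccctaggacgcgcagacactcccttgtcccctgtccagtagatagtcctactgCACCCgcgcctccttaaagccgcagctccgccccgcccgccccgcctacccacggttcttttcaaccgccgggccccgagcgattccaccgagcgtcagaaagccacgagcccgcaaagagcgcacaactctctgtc

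On either strand the CACCC box occurred 1 time each in the Pi16, Dpp4 and Efhd1 windows and 4 times in that of Sema3c. The box is common, since 57.5% of 32851 mouse promoter windows of this length held it. The GC box GGGCGG, which may overlap a CACCC box, occurred 3 times for Sema3c and 4 times for Efhd1 and in neither other window, against 35.7% of all windows. Dpp4 alone of the 4 held TATAAA (13.6% of all windows), and none held the AP-1 site TGANTCA (7.81%). These matches describe the letters in the windows, and binding of any factor to them was not tested. Klf4, a Krüppel-like factor, had 1111 CPM (UMIs of the gene per 1e6 UMIs of the summed cells) in marker-set and 484 CPM in other fibroblasts of the TAC library, against 1725 and 740.2 CPM in those of the sham library.

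The label of these cells names Pi16 and Dpp4. The rule used both genes to choose the cells, so how often they were seen is a description and no check of the name. Pi16 was seen in 99.5% of TAC and 99.8% of sham marker-set fibroblasts, but also in 88.4% of TAC and 67.4% of sham other fibroblasts. Dpp4 was seen in 11.2% (exact 95% interval 8.85 to 14) of TAC and 34.9% (32.2 to 37.6) of sham marker-set fibroblasts. So 545 of 614 TAC and 815 of 1251 sham members of the set had no Dpp4 UMI, and 66 TAC and 434 sham cells had both Pi16 and Dpp4. Adventitial position cannot be read from dissociated cells, and the cells are therefore named by their rule.

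The rule was met by different gene combinations in the libraries. Pi16 with Cd248 and Efhd1 made up 36.6% of the TAC and 23.8% of the sham set. Pi16 with Cd248 and Sema3c made up 21.8% of the TAC and 10.4% of the sham set, and these 3 genes with Efhd1 24.4% and 22.2%. All 5 genes were seen in 22 TAC cells (3.58% of the set) and 178 sham cells (14.2%). The TAC set thus leaned on Pi16 and Cd248, while Dpp4 was a more frequent part of the sham set.

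The levels of the rule genes are given as a description, since they chose the cells. Pi16 had 3324 CPM in TAC and 2848 CPM in sham marker-set fibroblasts, beside 1274 and 745 CPM in the other fibroblasts of those libraries. Cd248 had 227 and 319 CPM in the TAC and sham sets, beside 31.0 and 23.4 CPM in the other fibroblasts. Pi16 was the most abundant of the 5 in all 4 sets of cells. Dpp4 had 12.3 CPM in the TAC and 92.8 CPM in the sham set (others, 0.671 and 8.21 CPM). Sema3c had 75.4 and 226 CPM (others, 4.54 and 16.5), and Efhd1 102 and 278 CPM (others, 2.97 and 25.2). With all UMIs Pi16 was 1.17-fold higher in the TAC than in the sham set (1.15 to 1.19). The other 4 genes were then lower, Dpp4 by 7.57-fold (6.21 to 9.28) and Cd248 by 1.40-fold. At equal depth the log2 ratios of Sema3c and Efhd1 were -0.64 and -0.58, against -1.57 and -1.43 with all UMIs. Cd248 turned the other way at that depth, with 481 CPM in the TAC set and 404 CPM in the sham set. Dpp4 had 21.9 CPM in the TAC set and 119 CPM in the sham set.

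**Figure D1:**
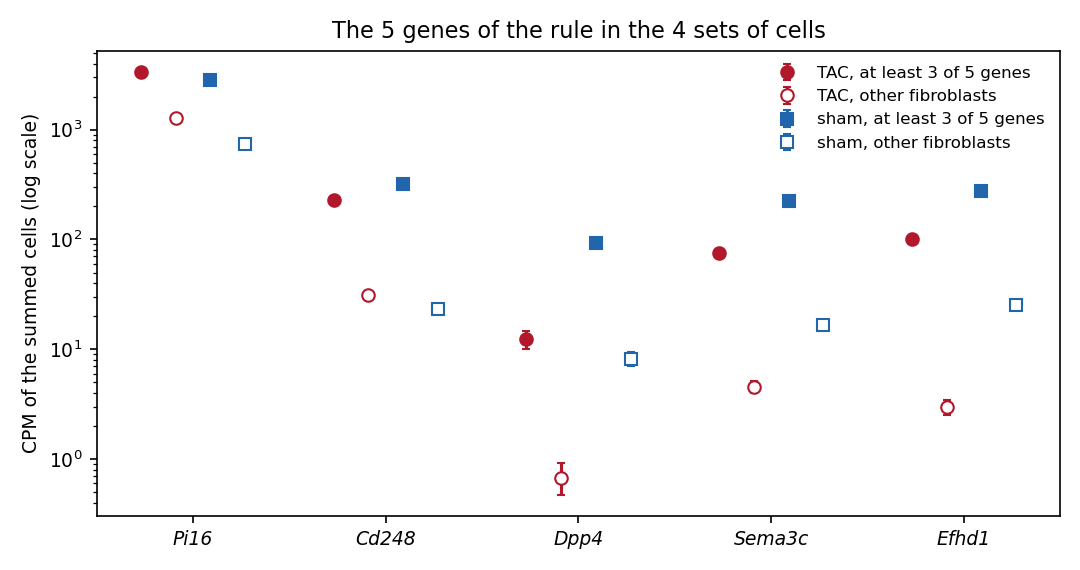
Level of each of the 5 rule genes in CPM on a log axis, with marker-set fibroblasts as filled and other fibroblasts as open symbols, TAC as red circles and sham as blue squares, and bars for exact 95% Poisson intervals. Pi16 stands above 700 CPM in all 4 sets, while Dpp4, Sema3c and Efhd1 are lower in TAC than in sham for both kinds of cell.

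The same genes summed over all gated fibroblasts do not depend on which cells met the rule. Across all gated fibroblasts Pi16 had 1567 CPM in TAC and 1259 CPM in sham, 1.24-fold higher in TAC (1.23 to 1.26). Dpp4 had 2.33 CPM in TAC and 28.9 CPM in sham, 12.4-fold lower in TAC (10.4 to 14.8). Sema3c (14.7 CPM in TAC, 67.8 in sham) was 4.62-fold lower, Efhd1 (17.1 and 86.9 CPM) 5.07-fold lower and Cd248 (59.0 and 95.6 CPM) 1.62-fold lower in TAC. Pi16 thus parted from the 4 genes it was grouped with. Ackr3, a scavenging receptor for the chemokine Cxcl12 that the rule did not use, had 80.2 CPM in TAC and 549 CPM in sham, 6.85-fold lower in TAC. Ly6a, the stem-cell antigen Sca-1, had 608 CPM in TAC and 748 CPM in sham.

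The number of marker-set fibroblasts depends on how deeply cells were read. Marker-set fibroblasts had a median of 14594 UMIs in TAC and 5889 in sham, and other fibroblasts 11764 and 4802. With all UMIs, 11.3% (10.5 to 12.2) of TAC and 20.1% (19.1 to 21.1) of sham gated fibroblasts met the rule, a ratio of 0.564 (0.511 to 0.621). After each cell was thinned to 3800 UMIs and the rule applied again, 168 of 5178 TAC fibroblasts (3.24%, 2.78 to 3.76) and 854 of 5039 sham fibroblasts (16.9%, 15.9 to 18.0) met it. In this draw the share at equal depth was 5.22-fold lower in TAC (4.42 to 6.20). Cells under 3800 UMIs, 245 in TAC and 1188 in sham, were left out of the thinned shares. Over 20 thinning draws the TAC share ran from 3.15% to 3.88% and the sham share from 16% to 17.1%, so the shares did not overlap. The share was 4.19-fold to 5.38-fold lower in TAC over these draws, with a mean of 4.78-fold.

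Free RNA in the droplets was read from leukocytes, most of which should lack these genes, although some lymphocytes are known to express Dpp4. Among cells with at least 2 Ptprc UMIs thinned alike, 0 of 959 TAC cells met the 3-gene rule, which allows a share of up to 0.313%, and 2 of 602 sham cells did (0.332%). Single genes were seen there at 11.5% in TAC and 9.63% in sham for Pi16, 0.834% and 1.16% for Cd248, 0.209% and 0.997% for Efhd1, and 0 of 959 cells and 0.664% for Sema3c. Endothelial-gated cells gave higher shares, 30.5% of 839 TAC and 52.2% of 92 sham cells for Pi16, 6.08% and 4.35% for Cd248, 2.62% and 6.52% for Efhd1, and 1.55% and 7.61% for Sema3c. At equal depth Dpp4 was seen in 7.14% of TAC marker-set fibroblasts (12 of 168 cells) but in 0.695% of all TAC gated fibroblasts, beside 3.02% of TAC leukocyte-gated and 2.98% of TAC endothelial-gated cells. In sham Dpp4 was seen in 31.5% of the set and 7.70% of all gated fibroblasts, beside 3.49% of leukocyte-gated and 15.2% of endothelial-gated cells. Over all fibroblasts, the Dpp4 share thus lay below that of both gated types in TAC and below that of endothelial-gated cells in sham. Median depths before thinning were 11056 UMIs in TAC and 6192 in sham leukocyte-gated cells.

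Cells with no rule gene were fewer in TAC, and cells with several were fewer too. At equal depth 16.4% of TAC and 21.8% of sham fibroblasts had none of the 5 genes, and 66.0% of TAC and 42.6% of sham fibroblasts had exactly 1. Exactly 3 genes were seen in 2.70% of TAC and 10.4% of sham cells, 4 genes in 0.463% and 4.94%, and all 5 in 0.0772% and 1.65%. The TAC library was thus concentrated at 1 gene, which was mostly Pi16 (seen in 82.3% of TAC and 74.0% of sham fibroblasts at this depth). Cd248 was seen in 13.8% of TAC and 20.6% of sham fibroblasts, Sema3c in 4.13% and 15.5%, and Efhd1 in 4.27% and 21.1%.

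**Figure D2:**
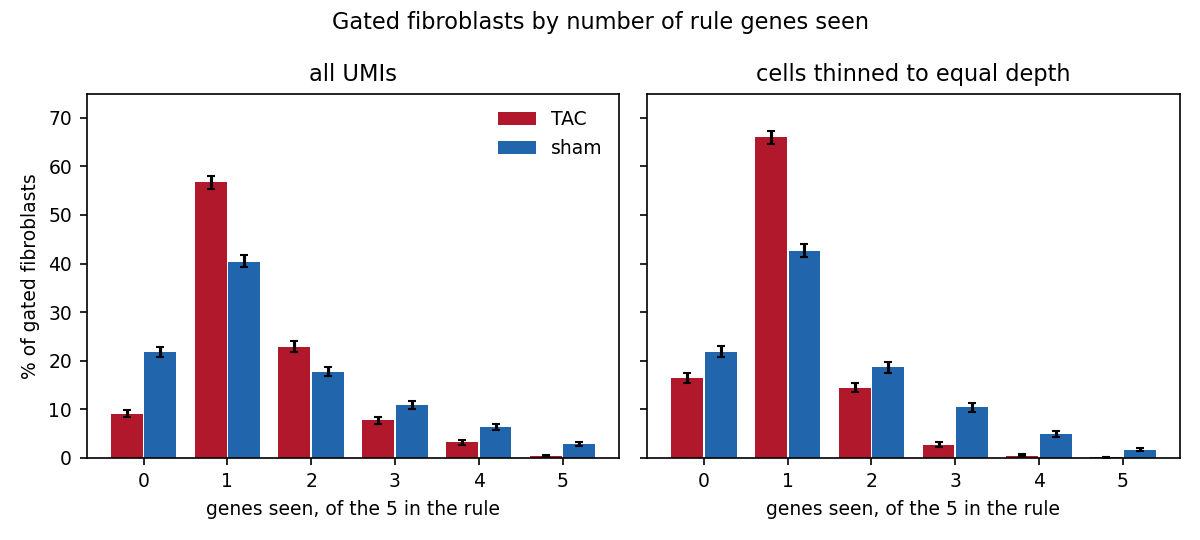
Percent of gated fibroblasts in which 0 to 5 of the rule genes were seen, TAC bars left of sham bars, with exact 95% binomial intervals, using all UMIs (left panel) and 3800 UMIs per cell (right panel). At equal depth 66.0% of TAC and 42.6% of sham fibroblasts had 1 gene, and TAC bars are below sham bars from 2 genes upward.

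The cells nearest to the threshold are given as a description, since the rule set the step between them. With all UMIs, 419 TAC cells just met the rule with 3 genes and 1239 just missed it with 2, and in sham the numbers were 675 and 1102. In TAC, Cd248 had 171 CPM just inside and 103 CPM just outside, Efhd1 68.5 and 9.98 CPM, Sema3c 45.6 and 14.3 CPM, and Pi16 2652 and 1768 CPM. In sham, Cd248 had 221 CPM just inside and 83.5 CPM just outside, Efhd1 181 and 89.2 CPM, Sema3c 101 and 53.4 CPM, and Pi16 1922 and 1317 CPM.

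Against other fibroblasts of the same library, marker-set fibroblasts had more RNA of Tmem100, Ly6c1, Ackr3, Ly6a, Gfpt2 and Ugdh, and less RNA of Ptn, Adm, Hsd11b1, Cxcl14 and Apoe. The rule used these cells' own counts, so the differences are descriptions. A gene was called 2-fold when its ratio of CPM, with 1 CPM added to each, passed 2 and it had at least 50 CPM in either set. In TAC 49 of 3436 genes (1.43%) were 2-fold higher and 22 (0.640%) 2-fold lower in marker-set fibroblasts, and in sham 67 (1.87%) were higher and 45 (1.26%) lower of 3583. Rule genes that reached 50 CPM are among the higher ones, 4 in TAC and 5 in sham. Of the 3172 genes measurable in both libraries, 30 (0.946%) were higher in both and 12 (0.378%) lower in both. The 30 were 75% of the 40 higher in TAC and 58.8% of the 51 higher in sham, and the 12 were 66.7% of 18 and 40% of 30. Pi16, Cd248, Sema3c and Efhd1 reached 50 CPM and passed 2-fold in both libraries, and the rule chose the cells on them.

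Tmem100, a membrane protein that BMP signalling switches on in endothelium, led the named genes outside the rule. It lies at chr11:90030348-90036508 (ENSMUSG00000069763) and had 134 CPM in marker-set and 16.9 CPM in other TAC fibroblasts, 7.95-fold higher (7.31 to 8.66). In sham it had 228 CPM in marker-set and 34.6 CPM in other fibroblasts, 6.58-fold higher (6.06 to 7.15). At equal depth it had 274 CPM in the TAC set and 22.7 CPM in TAC others, and 295 and 41.4 CPM in sham. Ly6c1, a surface antigen anchored by a lipid (ENSMUSG00000079018, chr15:75044018-75048830), had 177 and 30.3 CPM in the TAC set and others, and 189.9 and 26.8 CPM in the sham set and others. Its ratio was 5.83 (5.45 to 6.24) in TAC and 7.07 (6.45 to 7.77) in sham. Ly6c1 has close copies, among them Ly6c2 and Ly6a, and reads may be split between them. At equal depth Ly6c1 was seen in 47.0% of the TAC set and 9.12% of the others, and in 44.4% and 8.20% in sham. The same depth gave 5.42% and 1.33% in TAC and sham leukocyte-gated cells, and 47.3% and 29.3% in TAC and sham endothelial-gated cells, which are known to use this gene.

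Ackr3, Ly6a, Cd55, Fgf18 and Nbl1 were among the genes higher in both libraries. Ackr3 had 302 CPM in the TAC set and 43.2 CPM in TAC others, 6.98-fold higher, and 1138 and 358 CPM in sham, 3.18-fold higher. Ly6a had 1376 and 480 CPM in TAC (2.87-fold) and 1558 and 486 CPM in sham (3.21-fold). Cd55, which shields cells from complement, was 2.52-fold higher in TAC (293 and 116 CPM) and 2.67-fold in sham (581 and 217 CPM). Fgf18, a growth factor of skeletal development, was 3.64-fold higher in TAC (60.1 and 16.5 CPM) and 5.11-fold in sham (50.5 and 9.89 CPM). Nbl1, a secreted BMP antagonist, was 3.1-fold higher in TAC (749 and 242 CPM) and 2.96-fold in sham (359 and 121 CPM). Mustn1, Lrrn4cl, Emilin2, Htra4 and Myoc completed the named higher genes, with ratios of 2.93 to 5.84 in TAC and 2.63 to 5.76 in sham. Of these, Htra4 had 193 and 35.4 CPM in the TAC set and others at equal depth, against 95.3 and 32.5 CPM with all UMIs.

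Gfpt2 and Ugdh, enzymes on the way to hyaluronan, were higher in both libraries. Gfpt2, which opens the hexosamine pathway, had 330.3 CPM in the TAC set and 114 CPM in TAC others (2.91-fold), and 487 and 148 CPM in sham (3.30-fold). Ugdh, which makes the glucuronic acid precursor, had 278 and 93.9 CPM in TAC (2.96-fold) and 433 and 125 CPM in sham (3.48-fold). At equal depth Ugdh had 534 CPM in the TAC set and 98.7 CPM in TAC others. Has2, a hyaluronan synthase, had 29.7 and 5.52 CPM in TAC and 58.8 and 8.50 CPM in sham, log2 ratios of 2.23 and 2.65. Its partner synthase Has1 had 25.2 and 6.34 CPM in TAC and 17.3 and 5.21 CPM in sham. Vcan, the large proteoglycan that binds hyaluronan, had 489 and 244 CPM in TAC and 297 and 145 CPM in sham. In the hyaluronan list 3 of 8 measured genes were 2-fold higher and 0 lower in TAC, and 5 of 8 were higher and 0 lower in sham, with list medians of 0.75 and 1.08 (log2). All genes at the lists' minimum of 10 CPM had medians of 0.01 in TAC and 0.00 in sham, with 1.48% of them 2-fold higher and 0.782% lower in TAC and 1.51% higher and 1.13% lower in sham.

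Genes known from adventitial fibroblasts of other tissues moved with the rule genes. That list, from which the 5 rule genes were kept out, was chosen with earlier results of these data known, so its values are descriptions. It had 12 of 23 measured genes 2-fold higher and 0 lower in TAC and 16 of 24 higher and 0 lower in sham. Its median log2 ratios were 1.04 and 1.21, and every measured gene lay above 0. Cd34, a sialomucin of progenitor cells, had 1394 and 733 CPM in the TAC set and others and 1674 and 839.9 CPM in sham. Mfap5, a microfibril protein, had 3693 and 2291 CPM in TAC and 1989 and 757 CPM in sham. Limch1 had 24.3 and 3.85 CPM in TAC and 78.2 and 12.6 CPM in sham, and Stmn4, a regulator of microtubules, 10.5 and 0.988 CPM and 35.9 and 1.40 CPM. At equal depth Stmn4 had 34.5 and 1.16 CPM in TAC, from 22 UMIs in each set of cells. Il33 and Clec3b were the lowest of the list, with log2 ratios of 0.01 and 0.39 in TAC and 0.29 and 0.43 in sham.

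**Figure D3:**
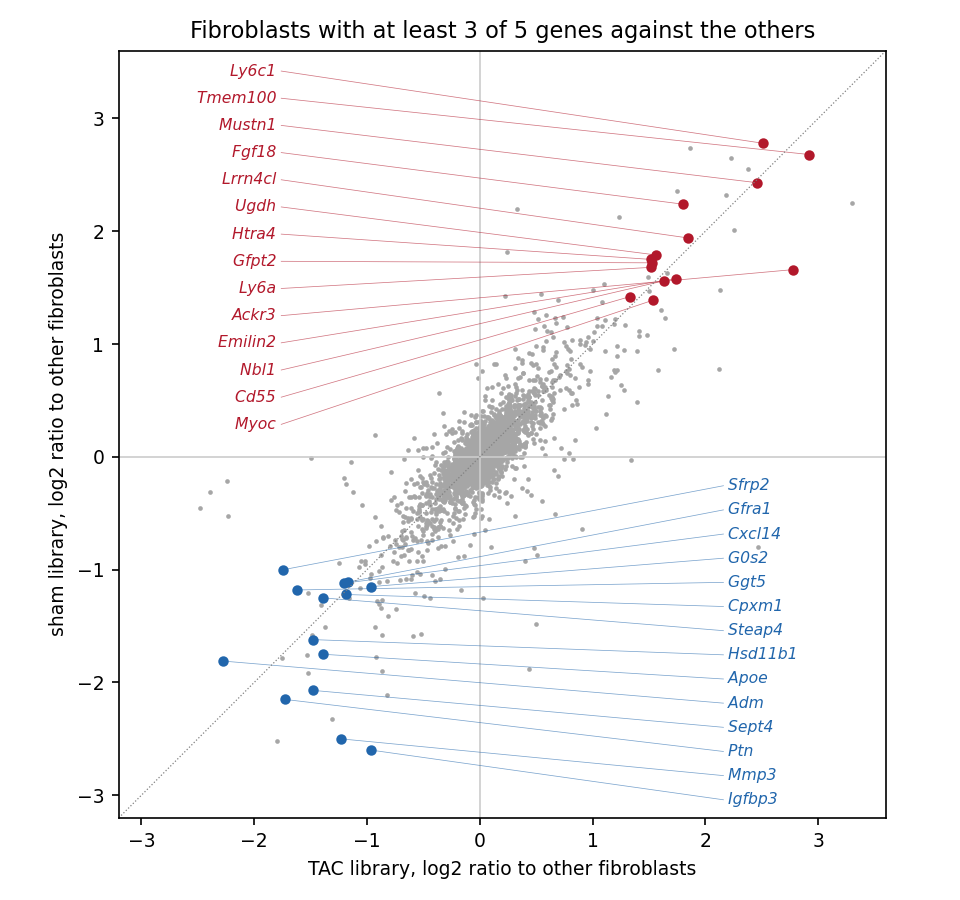
Log2 ratio of marker-set over other fibroblasts for each gene, TAC on one axis and sham on the other, with the named higher genes in red, the named lower genes in blue and a dotted line where the ratios are equal. Tmem100, Ly6c1 and Mustn1 stand far out at ratios above 5-fold in both libraries, and Ptn, Adm, Sept4 and Apoe stand on the lower side in both.

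Ptn, Hsd11b1, Apoe, Cxcl14 and Adm were lower in the set in both libraries. Ptn, the heparin-binding growth factor pleiotrophin (ENSMUSG00000029838, chr6:36714929-36810220), had 183 CPM in the TAC set and 608 CPM in TAC others, 3.32-fold lower (3.16 to 3.49). In sham it had 45.7 CPM in the set and 207 CPM in others, 4.53-fold lower (4.07 to 5.05). At equal depth Ptn had 89.3 CPM in the TAC set and 584 CPM in TAC others. Hsd11b1, which regenerates active glucocorticoid, was 2.80-fold lower in TAC (141 and 395 CPM) and 3.07-fold lower in sham (296 and 911 CPM). Apoe, the lipid carrier, was 2.62-fold lower in TAC (1101 and 2886 CPM) and 3.37-fold lower in sham (1312 and 4416 CPM). Cxcl14, a chemokine, had 509.6 and 1175 CPM in TAC and 565 and 1231 CPM in sham, 2.31-fold and 2.18-fold lower. Adm, the vasodilator adrenomedullin, had 9.62 and 50.4 CPM in TAC and 16.4 and 60.0 CPM in sham, 5.24-fold and 3.66-fold lower.

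Mmp3 and Sfrp2 were lower as well. Mmp3, a matrix-cutting protease, had 105 CPM in the TAC set and 246 CPM in TAC others, and 24.6 and 144 CPM in sham, 2.35-fold and 5.84-fold lower. Its RNA was uneven, with 83.8% of the UMIs of the TAC set in the 31 cells that had most. Sfrp2, a WNT modulator, was 3.35-fold lower in TAC (122 and 409 CPM) and 2.01-fold in sham (102 and 204 CPM). Sept4, Steap4, Cpxm1, Ggt5 and Gfra1 were 2.29-fold to 3.17-fold lower in TAC and 2.17-fold to 4.32-fold lower in sham. At equal depth the TAC set had only 4 UMIs of Steap4, 7 of Ggt5, 11 of Sept4 and 12 of Gfra1, and the TAC log2 ratios of these genes were larger than with all UMIs, at -2.88, -2.40, -2.59 and -1.83. Igfbp3 was 1.97-fold lower in TAC (54.1 and 106 CPM) and 6.33-fold in sham (18.5 and 117 CPM), and G0s2, which holds back lipolysis, 1.96-fold and 2.22-fold. The list of genes known from interstitial fibroblasts, which lie among the muscle cells, had 0 of 19 genes higher and 2 lower in TAC and 0 of 19 higher and 5 lower in sham, medians -0.54 and -0.49. Chemokines and alarmins had medians of -0.54 in TAC (2 of 15 higher, 4 lower) and -0.49 in sham (2 of 16 higher, 2 lower), with Ccl2 at 57.0 and 117 CPM in TAC and 145 and 275 CPM in sham.

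Matrix lists had medians within 0.2 of 0 (log2), with members past 2-fold in either direction in some. Fibrillar and network collagens had a median of 0.08 in TAC, with 0 of 16 genes past 2-fold, and -0.08 in sham, with 1 of 14 higher and 1 lower. Col1a1, a gate gene, had 3129 and 3234 CPM in TAC and 885 and 941 CPM in sham. Activated matrix genes had medians of -0.02 in TAC (2 of 24 higher, 1 lower) and -0.17 in sham (2 of 16 higher, 1 lower). Basement membrane genes had medians of 0.09 in TAC and 0.02 in sham, with 0 of 17 genes past 2-fold in either. Elastic microfibril genes had medians of -0.12 in TAC (2 of 20 higher, 1 lower) and 0.03 in sham (4 of 19 higher, 2 lower). Proteoglycans had medians of -0.06 in TAC (1 of 13 higher, 0 lower) and -0.17 in sham (1 of 12 higher, 0 lower). Proteases and inhibitors had medians of 0.01 in TAC (0 of 26 higher, 3 lower) and -0.11 in sham (0 of 27 higher, 2 lower). Complement genes had medians of 0.05 in TAC (4 of 11 higher, 1 lower) and -0.03 in sham (1 of 8 higher, 0 lower). Clu led those higher in TAC with a log2 ratio of 2.93. That ratio was 0.23 without cells holding mesothelial markers and 0.33 at equal depth. Semaphorins and guidance genes had medians of -0.06 in TAC (2 of 16 higher, 0 lower) and -0.03 in sham (0 of 16 past 2-fold). Ntn1 and Ntn4, secreted guidance proteins of the netrin family, were 2-fold higher in the TAC set, with 63.1 and 23.4 CPM for Ntn1 and 101 and 42.9 CPM for Ntn4.

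Signalling and stress lists had medians between -0.20 and 0.31. WNT ligands and modulators had medians of 0.31 in TAC (3 of 15 higher, 1 lower) and 0.05 in sham (2 of 19 higher, 0 lower), with Wnt10b at 7.61 and 0.30 CPM in TAC and 20.7 and 1.64 CPM in sham. Rspo1 was among the 3 higher in TAC, with a log2 ratio of 1.46. That ratio was 0.30 without cells holding mesothelial markers and -2.68 at equal depth. TGF-beta and BMP genes stood at 0.01 in both libraries, the IGF axis at -0.12 in both, and retinoid genes at -0.13 in TAC and 0.19 in sham. Fibroblast transcription factors had medians of -0.02 and -0.04, heat shock genes 0.06 and 0.04, and interferon-stimulated genes -0.18 and -0.01. Immediate early genes, which can respond to tissue digestion, had medians of -0.15 and -0.20, and contractile genes 0.27 and 0.31. In each of these 8 lists at most 2 genes were 2-fold higher and at most 1 was 2-fold lower in either library. Ifi27l2a, an interferon-stimulated gene, was 2-fold higher in the set in both libraries, at 1222 and 608 CPM in TAC and 904 and 417 CPM in sham. Ackr2, a receptor that scavenges inflammatory chemokines, had 33.7 and 3.28 CPM in TAC and 32.1 and 1.35 CPM in sham.

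Genes named above are also described over the number of rule genes seen, at equal depth. Ly6c1, Ackr3, Ptn and Hsd11b1 were ranked on marker-set against other fibroblasts of these libraries. Their direction over the steps is therefore not independent of that choice. In TAC, Ly6c1 had 10.6, 34.0, 96.0, 250 and 449.6 CPM in cells with 0, 1, 2, 3 and 4 rule genes. In sham it had 4.06, 29.0, 79.0, 145, 300.1 and 457 CPM in cells with 0 to 5. Both series climbed at every step. Ackr3 had 15.8, 49.4, 153, 449 and 1096 CPM in TAC and 194, 386, 698, 1093, 1562 and 1779 CPM in sham. At each number of genes Ackr3 was lower in TAC than in sham.

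Ptn and Hsd11b1, named as lower in the set, ran downward over the same steps. Ptn had 973, 544, 329, 103 and 21.9 CPM in TAC and 245, 169, 78.4, 63.5, 27.5 and 19.0 CPM in sham. Hsd11b1 had 470.1, 398, 239, 118 and 32.9 CPM in TAC and 1249, 871, 497, 302, 175 and 82.4 CPM in sham. Cells with 2 genes at this depth stood between those with 1 and 3 for each of these genes. They can include marker-set fibroblasts, since 614 TAC and 1251 sham cells met the rule with all UMIs but 168 and 854 at this depth. Postn, the matrix protein periostin, had 799, 1199, 1611, 2049 and 2105 CPM in TAC and 8.84, 33.0, 52.0, 64.0, 139.5 and 19.0 CPM in sham. The TAC steps rest on 847, 3415, 748, 140 and 24 cells, and the 4 TAC cells with all 5 genes are not used. The sham steps rest on 1101, 2148, 936, 522, 249 and 83 cells.

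**Figure D4:**
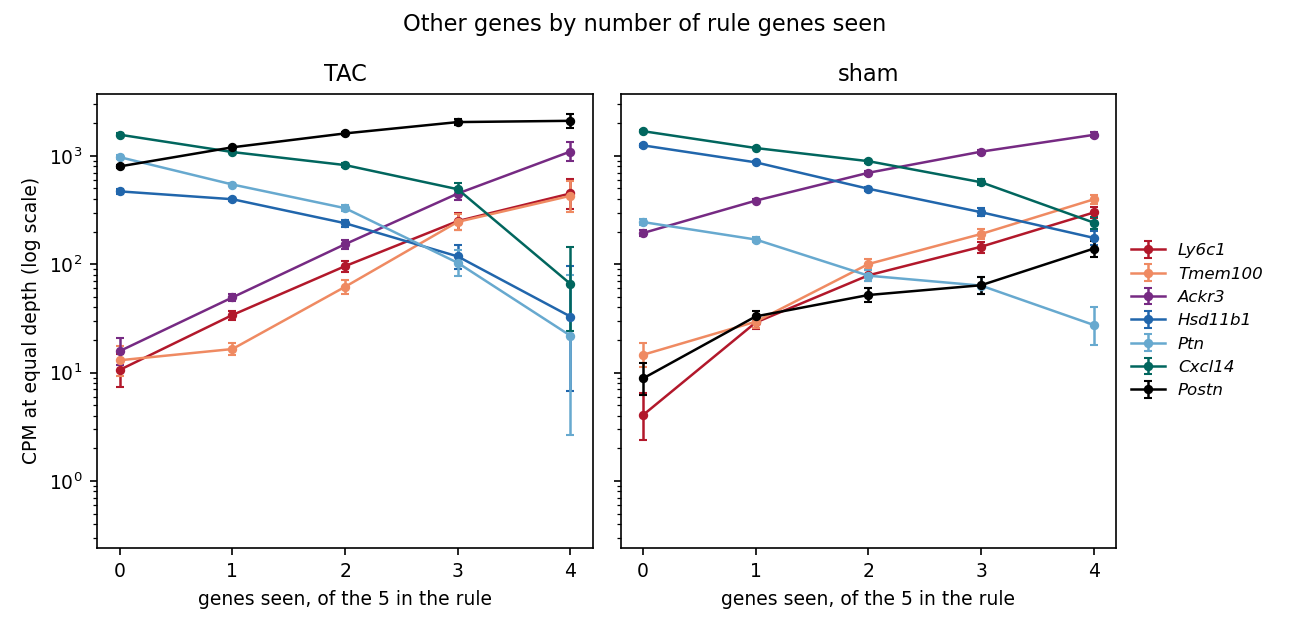
CPM of 7 genes that the rule did not use (log axis) over the number of rule genes seen in a cell, 0 to 4, at 3800 UMIs per cell, TAC in the left panel and sham in the right. Ly6c1, Tmem100 and Ackr3 climb and Hsd11b1, Ptn and Cxcl14 decline in both panels, and Postn is above 700 CPM in every TAC group and below 150 CPM in every sham group.

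Between operations, the TAC set had more RNA of the activated matrix list, led by Thbs4, Comp and Postn, and less of Ccl11, Nov, Inmt, Ces1d and Socs3 than the sham set. Of 3662 genes with at least 50 CPM in either set, 155 (4.23%) were 2-fold higher and 104 (2.84%) 2-fold lower in TAC. The other fibroblasts of the same libraries gave 143 higher (3.94%) and 109 lower (3.00%) of 3629. The sets were chosen at different depths, so values at equal depth are given for the genes described here as higher or lower whose ratio moved by over 1.5 times. The other fibroblasts share libraries with the set and are given as values beside it.

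Postn had 1950 CPM in the TAC set and 81.1 CPM in the sham set, 24.0-fold higher (22.2 to 26.0), and 1228 and 34.1 CPM in other fibroblasts, 36.0-fold higher. Its gene (ENSMUSG00000027750) lies at chr3:54361109-54391037. At equal depth Postn was seen in 82.7% of the TAC set and 68.2% of TAC others, against 7.49% and 3.27% in sham. Comp, the cartilage matrix thrombospondin (ENSMUSG00000031849, chr8:70373558-70382066), had 707 CPM in the TAC set and 6.47 CPM in the sham set, 109-fold higher (83 to 147). In other fibroblasts it had 447 CPM in TAC and 7.10 CPM in sham, 63.0-fold higher. Comp came from a minority of cells, being seen in 31.5% of the TAC set at equal depth, and 47.7% of its UMIs lay in the 31 cells that had most. Thbs4, of the same family, had 111 CPM in the TAC set and 0.635 CPM (5 UMIs) in the sham set, a ratio of 175 (74.6 to 539). It was seen in 103 of 614 cells of the TAC set, and 82.6% of its UMIs there lay in 31 cells. Among other fibroblasts it was seen in 13.4% of TAC and 0.342% of sham cells.

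Ctgf, Cilp, Ltbp2, Prg4, Timp1 and Dio2 were higher in both kinds of fibroblast. Ctgf, a matricellular protein, had 2803 CPM in the TAC set and 226 CPM in the sham set, 12.4-fold higher, and was 9.77-fold higher in others. Cilp, a matrix protein of stressed heart, had 509 and 29.1 CPM (17.5-fold; others 15.4-fold), and Ltbp2, a microfibril protein, 197 and 9.52 CPM (20.6-fold; others 13.3-fold). Prg4, the lubricant lubricin, had 166 and 10.0 CPM (16.6-fold; others 9.16-fold), and Timp1, an inhibitor of matrix proteases, 363 and 34.8 CPM (10.4-fold; others 10.1-fold). Dio2, which activates thyroid hormone, had 62.7 and 3.30 CPM (19.0-fold; others 23.3-fold). At equal depth Comp had 791 CPM in the TAC set and 4.01 CPM (13 UMIs) in the sham set, Prg4 235 and 8.94 CPM and Cilp 349 and 30.5 CPM.

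The list of activated matrix genes had 20 of 23 measured genes 2-fold higher and 0 lower in the TAC set, with a median log2 ratio of 3.28, and 23 of 24 higher and 0 lower in others, with a median of 2.94. At the lists' minimum of 10 CPM 3.69% of all genes were 2-fold higher in the TAC set and 3.12% in TAC others, with medians of -0.06 for both. Meox1, a transcription factor of activated fibroblasts, had 665 CPM in the TAC set and 91.4 CPM in the sham set. Tnc, tenascin C, had 7.40 CPM in the TAC set and no UMI in the sham set. Acta2, smooth muscle actin, had 57.2 CPM in the TAC set and 10.5 CPM in the sham set, beside 24.0 and 5.75 CPM in others. Collagens had 11 of 16 genes higher and 0 lower, with a median of 1.12, against a median of 1.09 in others. TGF-beta and BMP genes had 7 of 26 higher and 1 lower (median 0.22), with Tgfb1 at 244 CPM in the TAC and 46.8 CPM in the sham set.

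Ccl11 led the genes lower in the TAC set, and Socs3, Gadd45g, Ccl7 and Irf1 were among the 12 named. Ccl11, the eosinophil attractant eotaxin (ENSMUSG00000020676, chr11:82057823-82062955), had 5.39 CPM in the TAC set and 123 CPM in the sham set, 22.9-fold lower (17.2 to 30.9), and was 33.5-fold lower in others. At equal depth 0 of 168 cells of the TAC set had a Ccl11 UMI, which allows a share of up to 1.79%, against 12.3% of the sham set. Ccl7 had 26.5 and 162 CPM, 6.12-fold lower (others 6.74-fold). Socs3, a brake on cytokine signalling, had 112 and 858 CPM, 7.66-fold lower (others 5.21-fold), and Gadd45g, a stress gene, 54.1 and 394 CPM, 7.27-fold lower (others 5.95-fold). Irf1, an interferon-response factor, had 15.5 and 70.8 CPM, 4.56-fold lower (others 3.77-fold). The chemokine and alarmin list had 2 of 15 genes higher and 6 lower, with a median of -0.51, against -0.50 in others. Immediate early genes had 3 of 19 higher and 5 lower (median -0.53; others -0.74), and heat shock genes 0 of 15 higher and 3 lower (median -0.48; others -0.51).

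Ces1d, Inmt, Efemp1, Scara5, Nov, Ret and Car8 were the other lower genes named. Ces1d, a lipid esterase, had 35.4 CPM in the TAC set and 284 CPM in the sham set, 8.02-fold lower (others 4.16-fold), and Inmt, a methyltransferase, 11.3 and 99.1 CPM, 8.76-fold lower (others 17.2-fold). Efemp1, the matrix protein fibulin 3, had 79.9 and 578 CPM, 7.23-fold lower (others 10.1-fold), and Scara5, a ferritin receptor, 77.1 and 415 CPM, 5.38-fold lower (others 9.70-fold). Nov had 10.7 and 106 CPM, 9.94-fold lower (others 6.74-fold). Ret, the signalling receptor for GDNF, had 18.0 and 91.5 CPM, and Car8 16 and 75.8 CPM. At equal depth the TAC set had 1 UMI of Inmt and 5 of Ccl7, against 303 and 581 in the sham set. Nov had 21.9 CPM in the TAC set and 124 CPM in the sham set at that depth, Scara5 150.4 and 459 CPM, Ret 34.5 and 100.5 CPM, and Car8 45.4 and 91.5 CPM.

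**Figure D5:**
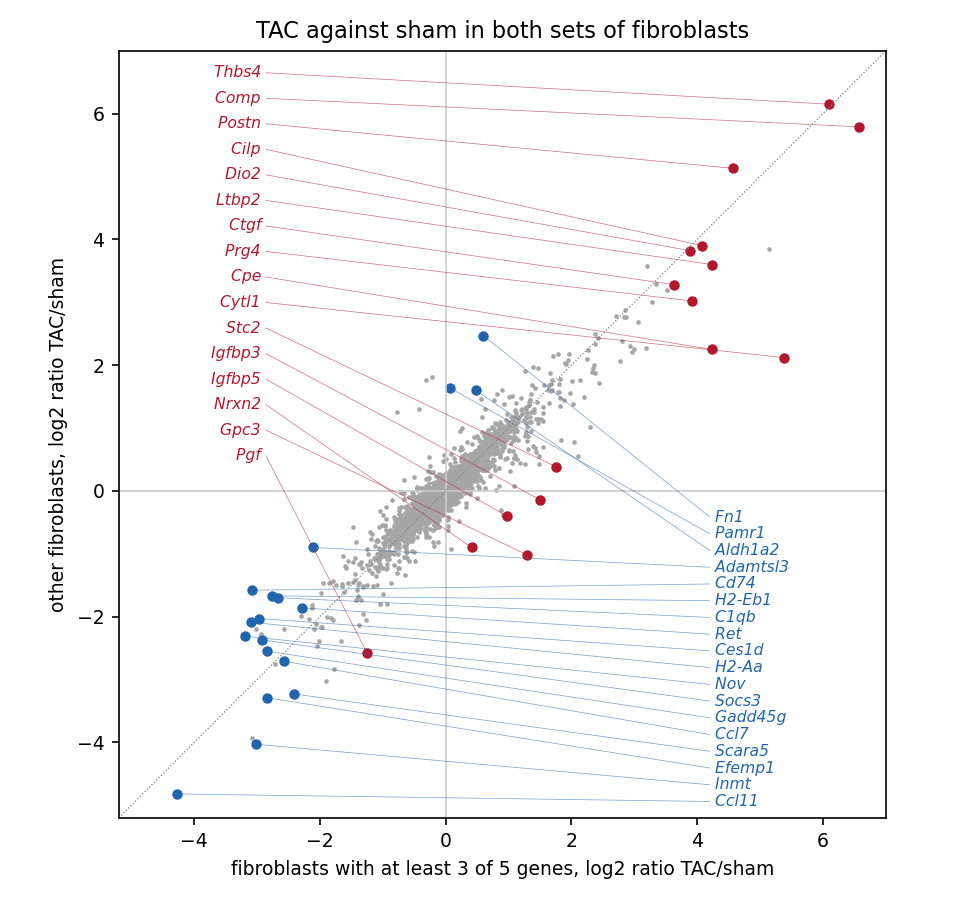
Log2 ratio of TAC over sham for each gene in marker-set and in other fibroblasts, with up to 10 genes from the top of 2 rankings (the ratio in the set, and its difference from the ratio in others) in red, up to 10 from the bottom of each in blue and a dotted line where the ratios are equal. Comp, Thbs4 and Postn lie far out on the higher side for both kinds of cell and Ccl11 on the lower side, while Cytl1 stands away from the line with 237 CPM in the TAC set.

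In the adventitial gene list 0 of 24 genes were 2-fold higher and 6 lower in the TAC than in the sham set, with a median of -0.46 that ran from -0.47 to -0.16 over the other settings, against 3 of 21 higher, 4 lower and a median of -0.30 in others. The background for 2-fold lower genes at 10 CPM was 2.71% in the sets and 2.74% in others. Ackr3 had 302 CPM in the TAC set and 1138 CPM in the sham set, a log2 ratio of -1.91 that was -1.20 at equal depth. Clec3b, a plasminogen-binding protein, had 670.1 CPM in the TAC set and 1464 CPM in the sham set. Mfap5 went the other way, with 3693 CPM in the TAC and 1989 CPM in the sham set. The hyaluronan list had 0 of 8 genes past 2-fold (median 0.36), although Has2 had 29.7 CPM in the TAC and 58.8 CPM in the sham set. The list of interstitial fibroblast genes had 4 of 19 higher and 7 lower (median -0.71; others -0.47).

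The other lists had medians between -0.20 and 0.80 in the sets. Elastic microfibril genes had 5 of 19 higher and 2 lower (median 0.80; others 0.82), basement membrane genes 6 of 17 higher and 0 lower (0.38; 0.34), and proteoglycans 3 of 13 higher and 0 lower (0.20; 0.30). Contractile genes had 4 of 14 higher and 0 lower (0.60, others 0.56), and complement genes 4 of 11 higher and 0 lower (0.42, others 0.30). Clu (log2 ratio 3.84) and C2 (3.26) were among the 4 complement genes. Without cells holding mesothelial markers they came to 0.82 and 1.5, and at equal depth to 1.7 and -0.39. Interferon-stimulated genes had 1 of 20 higher and 0 lower (0.36; 0.39), proteases and inhibitors 7 of 27 higher and 7 lower (0.01; -0.01), and WNT genes 3 of 19 higher and 4 lower (0.02; -0.13). The IGF axis had 2 of 8 higher (0.04; -0.17), retinoid genes 1 of 9 higher and 1 lower (0.04; -0.02), transcription factors 3 of 28 higher and 2 lower (-0.20; -0.12), and semaphorins 0 of 15 past 2-fold (-0.04; 0.01).

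Some genes differed between TAC and sham by unequal amounts in the set and in other fibroblasts. Fn1, fibronectin, had 239 CPM in the TAC set and 158 CPM in the sham set, but 190.3 and 33.6 CPM in others, so its log2 ratio was 1.87 smaller in the set. In sham Fn1 climbed with the number of rule genes, with 26.5, 29.5, 62.7, 118, 228 and 412 CPM in cells with 0 to 5 genes at equal depth. TAC cells with 0 to 4 genes had 232, 175, 189, 239 and 406 CPM. Fn1 thus stood high in TAC at every number of genes and high in sham where several were seen. Pamr1 had 54.9 CPM in the TAC and 52.7 CPM in the sham set, beside 46.4 and 14.2 CPM in others. Adamtsl3 had 24.6 and 109.7 CPM in the sets and 21.0 and 40 CPM in others, and it had 17.2 and 129 CPM in the sets at equal depth. Aldh1a2, which makes retinoic acid, had 105 and 75 CPM in the sets and 201 and 65.5 CPM in others.

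Cytl1, a small secreted cytokine-like protein (ENSMUSG00000062329, chr5:37735519-37739820), had the largest such difference among genes with at least 50 CPM in any of the 4 sets that were seen in at least 10% of its cells. It had 237 CPM in the TAC set and 4.70 CPM in the sham set, 50.4-fold higher (36.4 to 71.7), and 42.0 and 8.91 CPM in others, 4.72-fold higher. The RNA came from few cells, since 120 of 614 cells of the TAC set had any and 84.8% of its UMIs lay in 31 of them. At equal depth Cytl1 was seen in 11.3% of the TAC set and 4.81% of TAC others, and in 8.34% of 839 TAC endothelial-gated cells. In sham it was seen in 0.468% of the set, 0.669% of others and 59.8% of 92 endothelial-gated cells. At that depth Cytl1 had 280.4 CPM (179 UMIs) in the TAC set and 1.54 CPM (5 UMIs) in the sham set. It had 51.6, 43.3, 144, 333 and 21.9 CPM over 0 to 4 rule genes in TAC, so its level did not climb to the last step of 24 cells. Cpe, a peptide-processing carboxypeptidase, had 67.6 and 2.67 CPM in the sets, 25.3-fold higher, against 5.15-fold in others. Pgf, placental growth factor, had 103 and 246 CPM in the sets and 23.0 and 142 CPM in others. Stc2, a secreted glycoprotein hormone, had 85.0 and 24.4 CPM in the sets and 59.5 and 45.4 CPM in others. Igfbp3 had 54.1 and 18.5 CPM in the sets with all UMIs and 65.8 and 8.63 CPM at equal depth.

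Markers of other cell types moved with some of these genes. Macrophage markers summed to 57.1 CPM in the TAC set and 401 CPM in the sham set, and to 106 and 461 CPM in others. Cells with at least 3 of 10 macrophage markers numbered 21 of 614 in the TAC set and 23 of 1251 in the sham set. With these cells left out, the log2 ratio of the sets was -0.32 for Cd74 (-3.08 with them), -0.30 for C1qb (-2.66), -0.74 for H2-Aa (-3.10) and -0.60 for H2-Eb1 (-2.76), all of which leukocytes are known to express, while Ccl11 came to -5.47. These 4 genes are therefore not described as genes of the set. Mesothelial and epicardial markers summed to 141 CPM in the TAC set, with 5 cells holding at least 3, and to 3.17 CPM in the sham set, where 7 of 10 markers (Msln, Upk3b, Upk1b, Krt8, Krt18, Krt19 and Muc16) were at 0. In others they summed to 5.58 CPM in TAC and 7.39 CPM in sham.

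Without mesothelial-marker cells the log2 ratio of the sets was 0.82 for Clu (3.84 with them), 1.5 for C2 (3.26) and -0.45 for Gpc3 (1.30). Gpc3, a glypican, had 93.6% of its TAC-set UMIs in 31 cells. Endothelial markers summed to 44.0 and 13.2 CPM in the TAC and sham sets, mural markers to 18.7 and 18.2, Schwann markers to 28.1 and 32.0, lymphatic endothelial markers to 16.5 and 13.1 and cardiomyocyte markers to 40.2 and 44.8. Neutrophil markers came to 30.7 and 8.0 CPM, red cell markers to 261 and 407, lymphocyte markers to 0.740 and 5.97, cycling markers to 5.92 and 1.52 and adipocyte markers to 0 and 0.381. In other fibroblasts the TAC and sham sums were 84.4 and 35.6 CPM (endothelial), 58.3 and 47.9 (mural) and 1291 and 494 (red cell). The shares, the gene counts and the named ratios were also recomputed without macrophage-marker cells and without mesothelial-marker cells. The TAC over sham share ratio with all UMIs, 0.564, was then 0.562 and 0.560. Of 234 named ratios, 12 moved by over 1.5 times without macrophage-marker cells and 5 without mesothelial-marker cells. Cells with markers of the other types were not left out by those markers, so their part was not tested. The libraries shared 15 cell barcodes, 1 of them in the set of each library.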

How the data were processed

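Single-cell RNA was measured in non-cardiomyocytes of 1 TAC and 1 sham library. The authors deposited each library as a matrix of raw UMI counts. Its header names Cell Ranger 3.1.0, and mm10 and Seurat are named per the submitters' processing notes. Both libraries used the Chromium Next GEM 3′ v3.1 kit, per the labels' protocols. They held 96003109 (TAC) and 42490230 (sham) UMIs in 8901 and 8426 barcodes. The cell filter left 8000 and 7964 cells.

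UMIs were summed over the cells of each set and scaled to 1e6 (CPM). Folds are plain ratios of CPM, and log2 ratios and 2-fold calls use CPM + 1. Because each group is 1 library, no test across libraries was possible and no p-value is given. Intervals are exact 95% Poisson, conditional or Clopper-Pearson intervals. They cover counting error only, since cells of 1 library are not replicates. Equal depth means cells thinned without replacement to 3800 UMIs, the 20th percentile of gated fibroblasts of the shallower library. Cells with Ptprc or Pecam1 of at least 2 UMIs served as leukocyte-gated and endothelial-gated cells. Doublets were kept; Scrublet, with an expected rate of 0.07, called 2 TAC and 10 sham members of the set and served as an alternative.

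Genes ranked for naming had at least 50 CPM in a compared set, were seen in at least 10% of its cells and were not below 10% of their CPM in leukocyte- or endothelial-gated cells. The 14 with the largest smaller ratio of the 2 libraries each way, the 12 largest TAC over sham ratios each way, the 8 largest differences between the set and others each way and, with no minimum level, up to 4 genes of each list and the rule and gate genes were named. Unnamed gene models, mitochondrial, ribosomal and haemoglobin genes were not ranked. One gene of the ranking is not reported here. The members and the 21 gene lists and 12 marker lists were chosen with earlier results of these data known. Coordinates come from the annotation for 30934 of 31053 gene IDs, and promoters from RefSeq (4 of the 5 rule genes matched). The calculations were tested on simulated data. Python 3.11.15, NumPy 2.4.6, SciPy 1.17.1, pandas 2.3.3, Scanpy 1.11.5 and matplotlib 3.10.9 were used. Other settings of the rule, gate, filter, depth, scaling, minimum and comparison cells were tried, and 4 of them were chosen after seeing the data: leaving out macrophage-marker cells, leaving out mesothelial-marker cells, requiring Pi16 and Dpp4 both, and 20 thinning draws.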

Additional observations from a re-analysis of the deposited data

Results flagged for a closer look

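For 11 named genes the sign of a ratio differed between the 2 libraries or between marker-set and other fibroblasts. With 1 library per group these differences were not tested. Values are log2 ratios of CPM with all UMIs unless equal depth is named.

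Marker-set over other fibroblasts gave opposite signs in TAC and sham for 8 of them. Cytl1 stood at 2.47 in TAC and -0.80 in sham, Cpe at 0.50 and -1.48, Gpc3 at 0.44 and -1.88, Stc2 at 0.51 and -0.87 and Nrxn2 at 0.40 and -0.92. Aldh1a2, which makes retinoic acid, stood at -0.93 in TAC and 0.19 in sham, the lipid esterase Ces1d at -0.36 and 0.57, and the cytokine brake Socs3 at -0.48 and 0.08.

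TAC over sham gave opposite signs in the sets and in the other fibroblasts for Gpc3 (1.30 in the set, -1.02 in others), the insulin-like growth factor binding proteins Igfbp3 (1.5 and -0.14) and Igfbp5 (0.97 and -0.40), the synaptic adhesion gene Nrxn2 (0.41 and -0.90) and Ly6c1 (-0.10 and 0.17). For Gpc3 the sign in the set turned to -0.45 without mesothelial-marker cells. For Ly6c1 the signs did not differ at equal depth. It then had 279 CPM in the TAC set and 220.3 CPM in the sham set, and 39.3 and 33.6 CPM in TAC and sham others.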

How the results depend on the processing

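No paired analysis was possible because each group is 1 library. Of 102 alternatives for the shares and gene counts, 70 stayed within the set limits, 32 moved and 0 reversed; of 5885 for named genes and list medians, 4598 stayed, 1282 moved and 5 reversed. The cause was not tested. The TAC over sham share ratio, 0.564 with all UMIs, was 0.904 with at least 2 genes, 0.389 with at least 4, and 0.393, 0.355 and 0.497 without Pi16, Cd248 or Efhd1. At equal depth, 0.191 became 0.498, 0.0821, 0.0813, 0.0865 and 0.150 under the same changes and 0.0833 with Pi16 and Dpp4 both required. It was 0.230 with doublets left out and 0.220 with only the thinning seed changed. Leaving out cells also redraws the thinning, so the part of doublets was not tested apart from the draw. Every share ratio run stayed below 1. Genes 2-fold higher and lower in the set, 49 and 22 in TAC and 67 and 45 in sham, were 90 and 41, and 101 and 76, at 20 CPM; 243 and 128, and 196 and 223, with no minimum; and 110 and 88, and 124 and 94, against fibroblasts with none of the 5 genes. TAC gave 84 and 60 at equal depth and 77 and 51 with at least 4 genes. TAC over sham sets, 155 and 104, gave 239 and 177 at 20 CPM and 630 and 486 with no minimum. Reversed log2 ratios were Rspo1, TAC set over others, -2.68 at equal depth (1.46); Cxcl10, the same ratio, 0.72 against fibroblasts with none of the genes (-3.79); and, TAC over sham sets, C2 -0.39 and Gpc3 -0.94 at equal depth and Gpc3 -0.45 without mesothelial-marker cells. The adventitial list's median ran from 0.92 to 1.79 in TAC and 1.09 to 1.98 in sham, and from -0.47 to -0.16 for TAC over sham. Postn in sham, 1.23 above others, was 0.51 with others weighted by depth. At 3800 UMIs per cell the TAC set is 168 cells, so genes with few UMIs there are given as UMIs.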
